A study of Mus musculus with 6 samples.

Results

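Sox4, Sox11 and Sox12 are the 3 SoxC transcription factor genes of the mouse, and Cd24a and Islr2 encode surface proteins of young neurons. These 5 genes, of 17027 gene symbols measured, were followed in retinal ganglion cells (RGCs), the neurons that carry the output of the eye to the brain, at 3 ages. The genes were picked by name, with their changes with age already known from these same libraries, and Sox11, Cd24a and Islr2 are among the genes with the largest falls. Their changes are therefore described here without a test. The 6 libraries came from WT mice of strain C57/6NCrl that were taken on embryonic day 18 (E18), on postnatal day 5 (P5) or at 8 weeks (Adult), with 2 libraries per age. At every age the cells were caught on antibody to Thy1 after macrophages had been removed by panning, and the sample protocol also names amacrine cells as removed. The labels do not tell whether libraries of 1 age are from separate or pooled animals, so each SD and p-value measures only the spread between these samples. Levels are FPKM (fragments relative to transcript length and to all mapped fragments), summed over the isoforms of a gene.

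SoxC factors bind DNA through an HMG box and activate genes of newly born neurons. In the embryonic retina Sox4 and Sox11 are needed for RGCs to form, and they are also made by other young retinal neurons. Cd24a encodes a short, heavily glycosylated protein held in the membrane by a GPI anchor, which marks immature neurons and several blood cell types. Islr2 encodes a membrane protein with leucine-rich repeats and an immunoglobulin domain that binds growth factor receptors during axon growth.

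The SoxC genes each consist of 1 exon, and they are most alike where they encode the start of the HMG box. To show how close the 3 genes are to each other at the level of the reads, 90 bases of that part of the coding sequence are printed from the GENCODE M21 annotation of GRCm38. Capitals mark the 14 positions that are not the same in all 3 genes.

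Sox4: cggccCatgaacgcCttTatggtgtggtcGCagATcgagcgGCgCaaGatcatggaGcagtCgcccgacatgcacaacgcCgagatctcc
Sox11: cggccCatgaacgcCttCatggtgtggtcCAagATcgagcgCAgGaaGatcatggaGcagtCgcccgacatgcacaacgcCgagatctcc
Sox12: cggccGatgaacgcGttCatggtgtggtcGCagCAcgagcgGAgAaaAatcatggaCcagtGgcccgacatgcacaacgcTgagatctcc

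These stretches lie on the minus strand at chr13:28952752-28952841 for Sox4, chr12:27342169-27342258 for Sox11 and chr2:152397486-152397575 for Sox12. Sox4 and Sox11 had the same base at 84 of the 90 positions, Sox4 and Sox12 at 79, and Sox11 and Sox12 at 78. Outside this part the transcripts had little in common. Of the 4765 stretches of 31 bases in the Sox4 transcript, 18 also occurred in Sox11 and 3 in Sox12. The reads of 100 bases per end were longer than such stretches, and how the authors assigned reads that matched several genes is not given in the sources used here.

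The promoters of the same genes are printed because each of the 5 genes had its highest FPKM at E18, though Sox12 reached only 14.5 FPKM there. The 4 promoters differ in composition. Each is the 250 bases before the gene's start in RefSeq (GRCm38.p6), 5' to 3', and 4 of the 5 genes were matched in that table. Cd24a was not. Capitals mark CCAAT, read on either strand.

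Sox4: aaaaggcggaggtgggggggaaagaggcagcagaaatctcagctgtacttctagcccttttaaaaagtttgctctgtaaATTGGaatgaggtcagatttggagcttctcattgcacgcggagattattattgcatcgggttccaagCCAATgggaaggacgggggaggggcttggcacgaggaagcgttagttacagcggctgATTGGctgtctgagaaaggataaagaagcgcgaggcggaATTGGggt
Sox11: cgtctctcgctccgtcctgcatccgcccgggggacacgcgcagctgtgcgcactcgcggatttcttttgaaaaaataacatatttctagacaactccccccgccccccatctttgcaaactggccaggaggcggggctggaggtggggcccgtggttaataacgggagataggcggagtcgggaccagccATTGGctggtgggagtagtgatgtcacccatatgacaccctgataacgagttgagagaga
Sox12: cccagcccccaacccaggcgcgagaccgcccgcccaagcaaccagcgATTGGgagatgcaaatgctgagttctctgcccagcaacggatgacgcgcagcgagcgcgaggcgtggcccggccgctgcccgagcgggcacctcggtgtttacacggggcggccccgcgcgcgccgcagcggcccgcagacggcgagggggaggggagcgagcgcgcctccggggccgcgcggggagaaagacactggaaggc
Islr2: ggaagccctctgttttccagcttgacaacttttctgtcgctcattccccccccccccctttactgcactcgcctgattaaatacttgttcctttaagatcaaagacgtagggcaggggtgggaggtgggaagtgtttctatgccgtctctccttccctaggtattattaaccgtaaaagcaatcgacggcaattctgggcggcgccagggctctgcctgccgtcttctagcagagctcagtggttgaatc

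All of these lie on the minus strand, at chr13:28953700-28953949 for Sox4, chr12:27342719-27342968 for Sox11, chr2:152398047-152398296 for Sox12 and chr9:58204320-58204569 for the most upstream start of Islr2. Sox4 had 4 CCAAT matches, the nearest of them 8 bases before the RefSeq start, Sox11 and Sox12 had 1 each, and Islr2 had 0. The RefSeq start of Sox4, 28953699, lies inside its GENCODE M21 locus, which begins at 28953713, so this nearest match falls within the GENCODE transcript. The last bases of the Sox12 window likewise lie inside its GENCODE locus. CCAAT occurred in 33.8% of the 32851 mouse promoters of the same length. The Sox12 promoter stood out by its composition, with 74.4% G and C and 35 CpG pairs, more than 97.0% of promoters, against 11 CpG for Sox4, 17 for Sox11 and 10 for Islr2. It was also the only one of the 4 with the POU octamer ATGCAAAT, 195 bases before the start, which 1.6% of promoters held. The SOX core letters ACAATG (10.7% of promoters) and ACAAAG (16.5%) and the TATA box letters TATAAA (12.4%) were not in these 4 windows on either strand. Other forms of the SOX core were not searched for, so their absence is not shown. The GC box letters GGGCGG, in 32.7% of promoters, occurred 2 times for Sox11, 3 times for Sox12, 1 time for Islr2 and 0 times for Sox4.

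Sox4, the SoxC gene with the highest level at every age, is a locus of 1 isoform at chr13:28948919-28953713 on the minus strand. It stood at 286.7 and 304.5 FPKM in the E18 libraries, 125.5 and 168.1 at P5, then 9.49 and 11.2 in Adult. The 3 ages did not overlap and each was below the one before. Means were 295.6 ± 12.6, 146.8 ± 30.2 and 10.3 ± 1.21 FPKM (SD, n = 2). The P5 mean was 2.01-fold below E18, a log2(FPKM + 1) difference of -1.02 (SE 0.16). The Adult mean was 14.2-fold below P5, a difference of -3.69 (SE 0.16), which left 3.50% of the E18 level. All such log2 differences are on the scale of log2(FPKM + 1), which understates the change of genes with low values. In bulk RNA, fewer cells of a type and less RNA per cell cannot be told apart.

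Part of the Sox4 signal cannot be assigned with certainty. The lincRNA Gm26735 lies on the opposite strand and overlaps 2753 bases of the Sox4 locus, so 54.3% of the 31-base stretches of the Sox4 transcript also occur, in reverse, in Gm26735. Whether reads were counted by strand is not given in the sources used here, and without strand the reads of these 2 genes cannot be told apart. Gm26735 was listed at 23.4 and 19.1 FPKM at E18, 7.94 and 9.62 at P5, then 0 and 0.483 in Adult. It was thus lower than Sox4 in every library and, like it, lower at each later age.

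Sox11, the closest relative of Sox4, has 1 isoform at chr12:27334264-27342574 on the minus strand. Its levels were 124.6 and 127.7 FPKM at E18, 32.7 and 41.8 at P5, then 0.625 and 0.911 in Adult. Of the 3 SoxC genes it was the one that lost the largest share of its level at each step. The means of 126.1 ± 2.20, 37.3 ± 6.48 and 0.768 ± 0.202 FPKM (SD, n = 2) put P5 3.39-fold below E18 (log2 difference -1.74, SE 0.15). Adult was 48.5-fold below P5 (log2 difference -4.43, SE 0.15), and 0.608% of the E18 level was left. At a level below 1 FPKM, Adult Sox11 lay above 4.52% of the tested genes, after 96.3% at E18.

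Sox12, the third SoxC gene, followed another course. This gene of 1 isoform, at chr2:152393611-152398063 on the minus strand, stood at 14.8 and 14.2 FPKM at E18, 5.19 and 7.73 at P5, then 5.99 and 6.06 in Adult. Both Adult libraries lay between the P5 libraries, so these ages overlapped, while both were below E18. The means were 14.5 ± 0.421, 6.46 ± 1.80 and 6.02 ± 0.0471 FPKM (SD, n = 2). P5 was 2.24-fold below E18 (log2 difference -1.07, SE 0.18), and Adult and P5 differed by -0.07 (SE 0.18) on the log2 scale, less than their SE. The sign of this small difference depended on the scaling and on 1 library. It was 0.22 when the protein-coding genes of each library were set to the same total, 2.69 when the RGC markers were set to an equal median, and 0.18 without P5 library b. Between E18 and Adult the Sox12 difference of -1.14 (SE 0.18) also turned, to 1.64, with RGC markers at an equal median. On that scale the median of all tested genes was 2.69 between P5 and Adult and 2.59 between E18 and Adult.

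**Figure D1:**
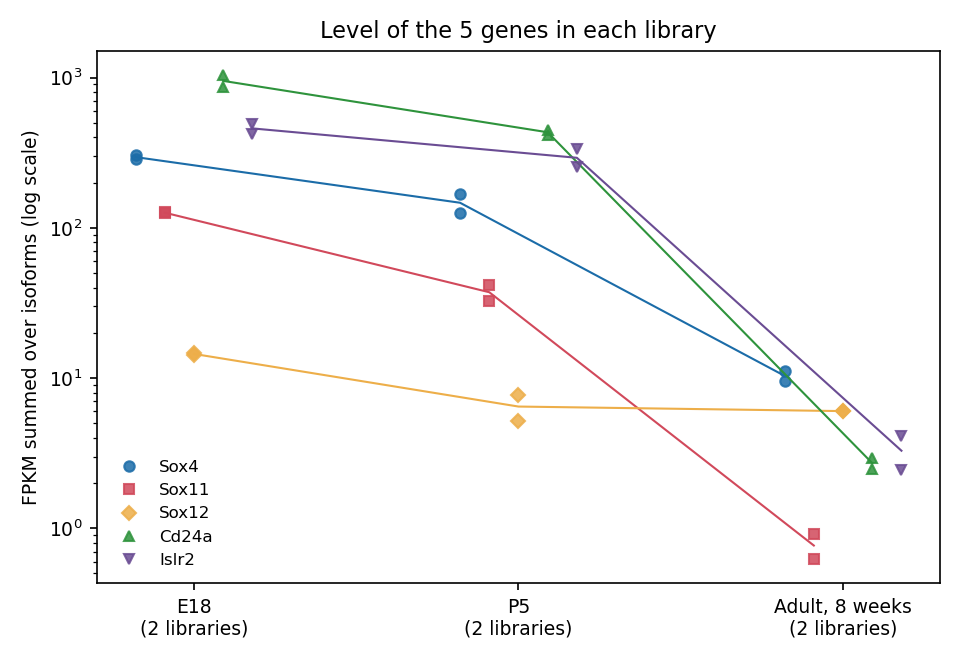
FPKM summed over isoforms, on a log axis, for each of the 6 libraries by age. Points are single libraries and lines join the means of 2 libraries. Sox4, Sox11, Cd24a and Islr2 drop at both steps, with Cd24a going from 950.6 to 2.71 FPKM between E18 and Adult, whereas Sox12 is level from P5 to Adult.

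The 3 SoxC genes together gave 426.0 and 446.4 FPKM at E18, 163.4 and 217.7 at P5, then 16.1 and 18.2 in Adult. Shares within this sum do not depend on how a library was scaled. Sox4 made up 67.3% and 68.2% at E18, 76.8% and 77.2% at P5, then 58.9% and 61.7% in Adult, so it was the main SoxC transcript throughout. Sox11 went from 29.2% and 28.6% at E18 through a P5 mean of 19.6% ± 0.552 (SD, n = 2) to 3.88% and 5.01% in Adult. Sox12 held 3.47% and 3.18% at E18, a like share of 3.18% and 3.55% at P5, and then 37.2% and 33.3% in Adult. The ratio of Sox4 to Sox11 was higher at each later age without overlap, going from 2.34 ± 0.0593 at E18 to 3.93 ± 0.125 at P5 and 13.8 ± 2.05 in Adult (SD, n = 2). Sox11 thus lay 8.72-fold above Sox12 at E18, but in Adult the ratio of Sox11 to Sox12 was 0.127 ± 0.0326 (SD, n = 2).

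Cd24a, at chr10:43578284-43584265 on the plus strand, had the highest level of the 5 genes at E18 and P5. It stood at 859.9 and 1041 FPKM at E18, 417.8 and 447.0 at P5, then 2.49 and 2.94 in Adult. The groups did not overlap, and the last step was far larger than the first. The means of 950.6 ± 128.2, 432.4 ± 20.7 and 2.71 ± 0.319 FPKM (SD, n = 2) gave a P5 level 2.20-fold below E18 (log2 difference -1.13, SE 0.13). Adult was 159.4-fold below P5 (log2 difference -6.87, SE 0.13) and 350.4-fold below E18, with 0.285% of the E18 level left. Between Adult and E18 its log2 difference of -8.00 was the second lowest of all 14390 tested genes. At E18 it was above 99.7% of the tested genes, and in Adult above 18.8%.

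Of the 3 Cd24a isoforms, the one of 1816 bases held between 98.9% and 99.5% of the gene's FPKM in the E18 and P5 libraries. It held 99.97% in Adult replicate 1 and 89.99% in Adult replicate 2. The coding part takes up 228 bases, or 12.6%, of that transcript. Of its 31-base stretches, 7.11% occur in other annotated genes, most of them in the predicted gene Gm6212 (6.10%). The level of Cd24a therefore rests mostly on sequence that no other annotated gene has.

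Islr2, at chr9:58196297-58204319 on the minus strand, was the gene with the smallest step from E18 to P5. Its levels were 423.1 and 494.4 FPKM at E18, 252.4 and 332.4 at P5, then 4.12 and 2.45 in Adult. Both P5 libraries were below both E18 libraries, and the gap between the ages was little wider than the one between libraries of the same age. The means were 458.8 ± 50.4, 292.4 ± 56.6 and 3.28 ± 1.18 FPKM (SD, n = 2). P5 was 1.57-fold below E18 (log2 difference -0.66, SE 0.22), and Adult was 89.1-fold below P5 (log2 difference -6.11, SE 0.22). In Adult 0.715% of the E18 level was left.

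Islr2 was listed with 12 isoforms, of which 3 held between 91.5% and 92.2% of its FPKM in the E18 and P5 libraries. The isoform that begins at the most upstream annotated start (position 58204319, 3880 bases long) follows the promoter printed above. It stood at 171.9 and 198.5 FPKM at E18, 115.1 and 160.8 at P5, then 2.51 and 1.47 in Adult. Its share of the gene was 40.6% and 40.1% at E18, 45.6% and 48.4% at P5, then 60.9% and 60.2% in Adult. The 10 isoforms with downstream starts, between 58200572 and 58202951, went the other way, from 57.9% and 58.8% through 53.6% and 50.9% to 39.1% and 39.8%. The libraries of an age lay within 3 percentage points of each other, so the shift exceeded their spread. In Adult, 9 isoforms were listed at 0 in both libraries, and the Adult shares rest on gene levels of 4.12 and 2.45 FPKM. The annotated genes Islr and 1600029O15Rik overlap the Islr2 locus and are not analysed here, and 3.92% of the 31-base stretches of Islr2 occur in Islr.

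**Figure D2:**
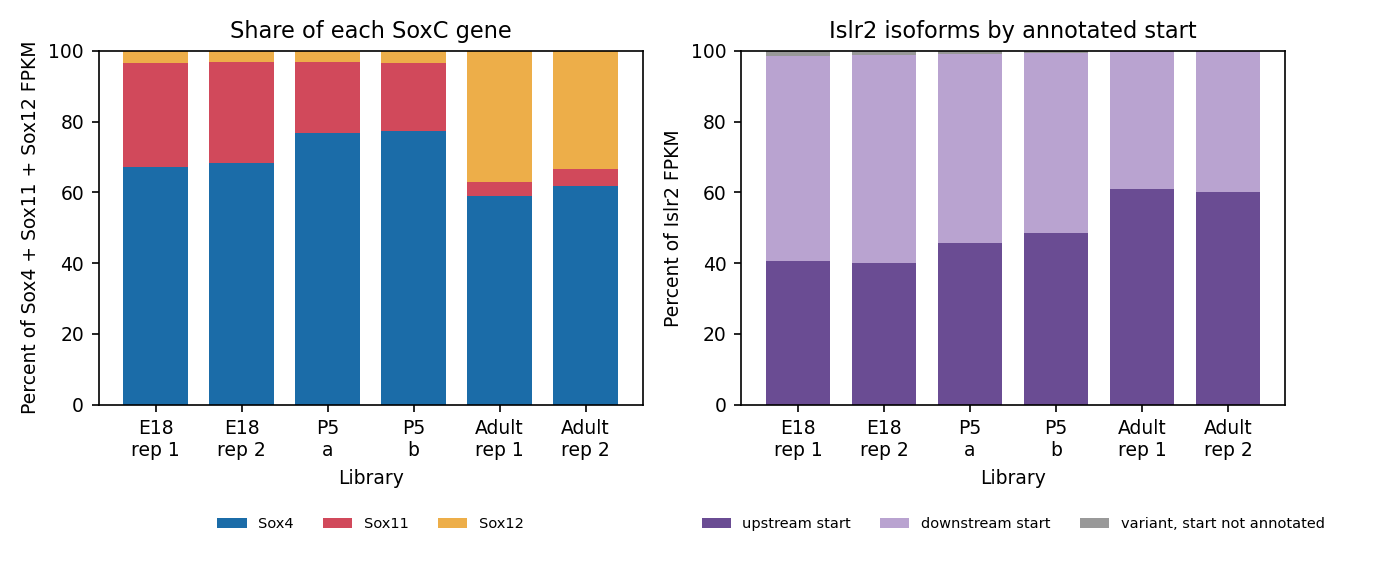
Left, percent of the summed FPKM of Sox4, Sox11 and Sox12 held by each gene in each library. Right, percent of Islr2 FPKM from isoforms of the upstream start, of downstream starts and of a variant with no annotated start. Sox12 makes up 37.2% and 33.3% of the SoxC sum in Adult, after at most 3.55% before, and the upstream Islr2 start goes from about 40.1% at E18 to 60.2% and more in Adult.

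At E18 and at P5 the order of the levels was Cd24a, Islr2, Sox4, Sox11 and Sox12, and no neighbours in this order overlapped. In Adult it was Sox4, Sox12, Islr2, Cd24a and Sox11, where Islr2 and Cd24a overlapped. In both P5 libraries all 5 genes were below both E18 libraries, which held for 34.2% of the tested genes. In Adult, 4 of the 5 were below both P5 libraries (43.1% of tested genes) and all 5 below both E18 libraries (47% of tested genes). Since the genes were chosen for these changes, the counts show nothing more than the choice does. Against the 14390 tested genes ranked from the largest fall, the Adult-to-P5 differences of Cd24a, Islr2, Sox11 and Sox4 ranked 3, 11, 30 and 63, and that of Sox12 ranked 7246.

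The libraries of an age differed from each other in the 5 genes as follows. P5 library a was below library b for each gene, by 0.42 for Sox4, 0.35 for Sox11, 0.50 for Sox12, 0.10 for Cd24a and 0.40 for Islr2 on the log2 scale. At E18, replicate 1 was below replicate 2 by 0.28 for Cd24a and 0.22 for Islr2, and the SoxC genes differed by at most 0.09. The Adult libraries differed most for Islr2, which was higher in replicate 1 by 0.57, while the other 4 genes were lower in replicate 1.

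The differences of the 5 genes were set beside those of 16 RGC markers. All 16 were detected in every library. Their geometric mean was 101.5 and 120.0 FPKM at E18, 129.6 and 123.4 at P5, then 20.05 and 11.96 in Adult, so that the Adult mean was 7.91-fold below P5 and 6.93-fold below E18. Between E18 and P5, where this mean was nearly level, the reductions of Sox4, Sox11, Sox12 and Cd24a were each larger than those of all 16 markers and that of Islr2 larger than those of 14. The largest reduction of a marker at that step was 1.93-fold, for Isl2, a LIM homeodomain factor of RGCs. Between P5 and Adult, Sox11, Cd24a and Islr2 had larger reductions than all 16 markers, of which Pou4f3 was lowered most, 31.6-fold. Sox4 had a larger reduction than 11 of the 16 and Sox12 than 2. The 5 genes were chosen with these changes known, so their places among the markers are a description only.

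As a percent of the RGC marker mean, Cd24a stood at 846.8 and 867.9 at E18, 322.3 and 362.4 at P5, then 12.4 and 24.6 in Adult. Islr2 went from 416.7 and 412.2 through 194.7 and 269.4 to 20.5 in both Adult libraries. The transcripts of both surface proteins thus started well above the typical RGC marker and ended well below it. Sox11 went from 122.7 and 106.4 through 25.2 and 33.9 to 3.12 and 7.62. Sox4 had 282.3 and 253.8 at E18, 96.8 and 136.3 at P5, then 47.3 and 93.6 in Adult, where the Adult mean lay 3.80-fold below E18 and 1.65-fold below P5, without overlap of the ages. Sox12 had 14.5 and 11.8 at E18, 4.001 and 6.27 at P5, then 29.9 and 50.7 in Adult, so relative to RGC markers its Adult level was above both younger ages. This was not particular to Sox12. With RGC markers at an equal median, its difference between P5 and Adult was 2.69, beside a median of 2.69 over all tested genes. Between E18 and Adult it was 1.64, below the median of 2.59. Which of these scales is nearer to the level per RGC depends on how stable the markers are in an RGC, which was not measured.

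**Figure D3:**
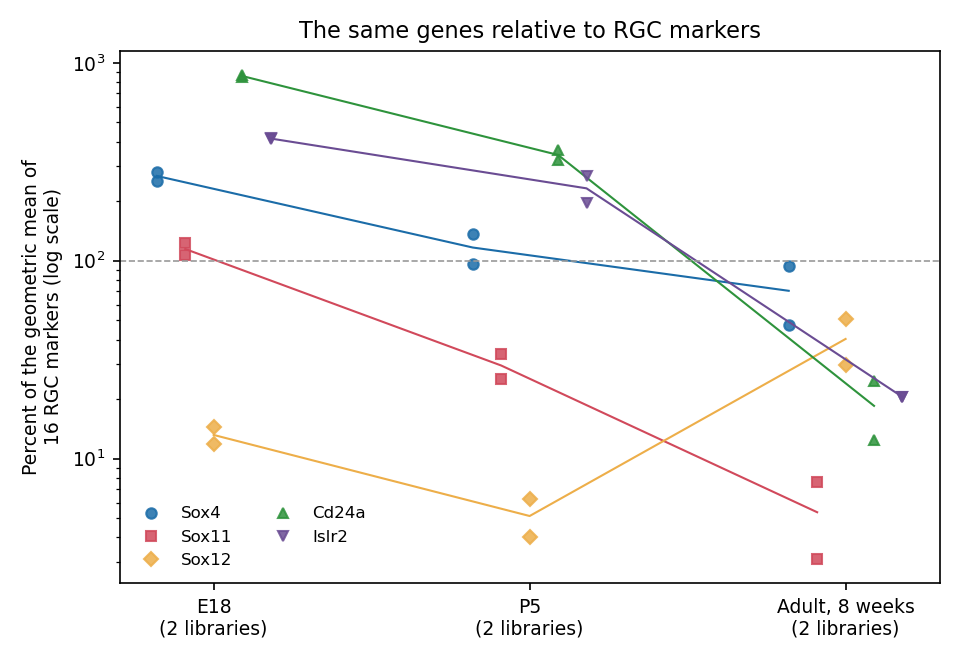
Each gene as a percent of the geometric mean of 16 RGC markers in the same library, on a log axis, by age. Points are single libraries, lines join means, and the dashed line marks the RGC marker mean. Cd24a, Islr2 and Sox11 drop at both steps, Sox4 is at 47.3 and 93.6 in Adult, and Sox12 is highest in Adult at 29.9 and 50.7. With RGC markers at an equal median, 13416 of all 14390 tested genes were called higher in Adult than at P5.

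The Adult libraries held more RNA of other retinal cells than the younger ones. The summed FPKM of 11 rod markers was between 5.75 and 12.1 in the E18 and P5 libraries and 5897 and 722.1 in Adult, and all 11 were called higher in Adult than at P5. The sum of 8 amacrine markers was between 108.4 and 181.8 before Adult and 1176 and 1624 in Adult, and that of 8 Muller glia markers between 148.1 and 180.5 before and 1344 and 1609 in Adult, with all of these called higher. No rod, amacrine or Muller glia marker was at 0 in Adult. The RGC marker sum went from 2990 and 3529 at E18 through P5 sums of 3701 and 3356 to 593 and 387.3 in Adult. The part of these cells in the Adult values of the 5 genes, and of the other genes named below, was not tested.

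Progenitor markers moved with 1 E18 library. Their sum over 15 genes was 135.4 in E18 replicate 1, against 19.8 in replicate 2, 16.1 and 17.5 at P5, then 93.9 and 76.1 in Adult. Of the 15, 14 were higher in E18 replicate 1 than in replicate 2, none was at 0 in these libraries, and in Adult Top2a was at 0 in both libraries and Fgf15 in replicate 2. None of the 5 genes was higher in E18 replicate 1 by more than 0.06 (Sox12) on the log2 scale. With E18 replicate 1 left out, their P5 to E18 differences lay between -0.77 (Islr2) and -1.76 (Sox11). The part of progenitors in the E18 levels of the 5 genes was not tested.

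Genes known as SoxC targets or partners, and genes related to Cd24a and Islr2, were tested in the fit across all genes. This limma test on log2(FPKM + 1) called a gene at a Benjamini-Hochberg adjusted p under 0.05. Between E18 and P5 it called 10.5% of the 14390 tested genes, 4.95% lower and 5.52% higher at P5. Between P5 and Adult it called 59.8%, 33.7% lower and 26.2% higher, and between E18 and Adult 59.7%, 34.4% lower and 25.3% higher. The comparisons share libraries and are not independent of each other. Of 109 genes in 8 lists, 86 were tested, and 13 of these were called between E18 and P5, with 6 higher and 7 lower. Without E18 replicate 1 limma called 0, with 16 at an unadjusted p under 0.05, and without P5 library a it called 0, with 19. With any other library left out it called 5 to 7. Between P5 and Adult, 20 were higher and 47 lower, and with the RGC markers set to an equal median the same comparison gave 67 higher and 8 lower. On that scale the median of all tested genes was 2.69, and of all 14390 tested genes 13416 were called higher and 192 lower. Between E18 and Adult 13318 were called higher and 244 lower on it. The list counts given below for RGC markers at an equal median are to be read beside these. The direction of a change between P5 and Adult is therefore meant below relative to the deposited FPKM.

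Of 10 genes reported as direct or activated targets of Sox4 or Sox11 in neurons, 9 were tested and Tubb3 is not analysed here. From E18 to P5, 1 fell, 0 rose and the median difference was -0.17, beside -0.03 over all tested genes. From P5 to Adult, 6 fell and 1 rose, with a median of -0.93 beside -0.07, whereas with RGC markers at an equal median 2 were lower (Dcx and Mex3a) and 7 higher. The gene that fell at the first step was Tead2, a partner of YAP in transcription, which is named after its values were seen. It was at 6.09 and 1.85 FPKM at E18 and at 0.240 and 0.151 at P5 (limma log2 difference -1.91, SE 0.42, adjusted p = 0.0405). The higher E18 value was in the library that was high in progenitor markers, and the part of progenitors in this fall was not tested.

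Dcx, a microtubule protein of migrating neurons, had 80.9 and 83.6 FPKM at E18, 47.1 and 56.6 at P5, then 1.26 and 2.67 in Adult. The first step was not called (limma adjusted p = 0.122), and at the second Dcx fell 26.4-fold (log2 difference -4.19, SE 0.23, limma adjusted p = 6.42e-05). Mex3a, an RNA-binding protein, had 33.8 and 32.9 FPKM at E18, 12.9 and 27.7 at P5, then 0.687 and 1.14 in Adult, and fell 22.2-fold between P5 and Adult (limma adjusted p = 0.000342). Arpc3, a subunit of the Arp2/3 actin complex, fell 4.404-fold at that step. Falls of Map2, Nrcam and Plxna1, a dendritic microtubule protein, an adhesion molecule and a semaphorin receptor, were between 1.501-fold and 1.93-fold. Tank stayed between 11.5 and 14.8 FPKM in all 6 libraries and was not called.

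Prox1 was the target that was called higher between P5 and Adult. This homeobox gene, also a marker of horizontal, bipolar and some amacrine cells, had 1.68 and 0.503 FPKM at E18, 0.200 and 0.437 at P5, then 26.9 and 19.97 in Adult. Its rise between P5 and Adult was 73.5-fold (log2 difference 4.20, SE 0.31, limma adjusted p = 0.000139). The amacrine marker sum rose at the same step, as given above, and its part in the Prox1 value was not tested.

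Early neuron genes, a list of 20 textbook genes of young neurons without the 5 genes themselves, had 19 tested. From E18 to P5, 5 fell and 0 rose, with a median of -0.33 beside -0.03 over all tested genes, against 3 lower and 2 higher with TPM and 2 and 2 with quantile normalization. With RGC markers at an equal median 1 was lower, Igfbpl1. Limma called 0 of the list without either E18 replicate (7 each at an unadjusted p under 0.05) and 0 without P5 library a (8). Igfbpl1, an early neuronal gene related to the insulin-like growth factor binding proteins, fell most, from 43.3 and 46.3 FPKM to 10.2 and 13.6 (3.77-fold, log2 difference -1.84, SE 0.18, limma adjusted p = 0.00838). Stmn1, a tubulin-binding stathmin, fell 1.53-fold, and Tmsb10, which binds actin monomers, 1.36-fold. Crmp1, a semaphorin signalling protein named after its values were seen, fell 1.497-fold. Nhlh2, a basic helix-loop-helix factor, fell 2.18-fold and then rose.

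From P5 to Adult, 18 of the 19 fell and 1 rose, with a median of -2.90 beside -0.07, whereas with RGC markers at an equal median 6 were lower and 6 higher. Tubb2b, a beta tubulin of young neurons, fell 123-fold, from 1053 and 1073 FPKM to 7.31 and 9.96 (log2 difference -6.80, SE 0.17, limma adjusted p = 9.64e-06). Gap43, the growth cone protein, fell 30.8-fold, from 1108 and 1026 FPKM to 33.6 and 35.7. Stmn2 fell 15.6-fold, Tmsb10 12.2-fold and Tuba1a, the list gene with the highest level, 8.57-fold. Of these, Tubb2b (log2 difference -3.80), Gap43 (-1.81) and Stmn2 (-0.84) were also lower on the scale with equal RGC markers. The gene that rose was Nhlh2, from 7.19 and 10.3 FPKM at P5 to 69.4 and 72.2 in Adult (8.08-fold, limma adjusted p = 0.00011).

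Transcription factors that bind with SoxC proteins or act before them, formed a list of 11 with 10 tested. From E18 to P5, 1 fell and 0 rose (median -0.60 beside -0.03), and between P5 and Adult 2 fell and 1 rose (median 0.15 beside -0.07), or 0 lower and 8 higher with RGC markers at an equal median. Between E18 and Adult 5 fell and 2 rose (median -0.78 beside -0.11), or 0 lower and 6 higher with equal RGC markers. Rcor2, a corepressor found with the neuronal repressor REST, fell at both steps. It had 30.9 and 31.03 FPKM at E18, 12.7 and 14.4 at P5, then 2.62 and 2.89 in Adult, with limma adjusted p of 0.00964 and 8.98e-05. Neurod1, a basic helix-loop-helix factor also active in photoreceptors, had 13.0 and 6.00 FPKM at E18, 12.7 and 16.7 at P5, then 63.8 and 17.2 in Adult. It was not called at either step between neighbouring ages, and was called 4.26-fold higher in Adult than at E18 (log2 difference 1.79, SE 0.61, limma adjusted p = 0.0418). Its high Adult value was in the library with the higher rod marker sum, and the part of rods in it was not tested. POU factors of class III, the known partners of SoxC proteins, are named after their values were seen. Pou3f2 fell from 2.28 and 3.92 FPKM at P5 to 0.482 and 0.437 in Adult (limma adjusted p = 0.0023), whereas Pou3f3 rose from 0.0523 and 0.0538 to 5.00 and 8.48 (limma adjusted p = 0.000259).

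Of 17 Sox genes outside group C, 6 were in the table and 4 were tested. Between E18 and P5 limma called 0 of them, and 0 had an unadjusted p under 0.05. Between P5 and Adult 1 fell and 2 rose (0 and 3 with RGC markers at an equal median). Sox6, a SoxD gene, had 16.6 and 17.9 FPKM at E18, 13.3 and 8.85 at P5, then 1.70 and 3.82 in Adult, and fell 4.01-fold at the second step (log2 difference -1.72, SE 0.31, limma adjusted p = 0.00365). Sox2, which maintains progenitors and is also made by Muller glia and some amacrine cells, had 24.3 FPKM in E18 replicate 1 and 0.502 in replicate 2. It stood at 0.451 and 0.707 at P5 and at 6.32 and 8.39 in Adult, and was not called at either step. Sox5 and Sox8, named after their values were seen, rose to between 3.51 and 6.46 FPKM in Adult from at most 0.267 at P5. At E18 and P5 no Sox gene outside group C reached the level of Sox4 or Sox11 in the same library.

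Of 7 genes that bind CD24 or signal with it, 4 were tested. Between E18 and P5 limma called 0 of them, with 1 at an unadjusted p under 0.05. Between P5 and Adult all 4 fell (median -1.62 beside -0.07), but with RGC markers at an equal median 0 were lower and 3 higher. L1cam, an adhesion molecule of axons that binds CD24, fell 6.59-fold, from 128.0 and 127.6 FPKM to 18.3 and 20.5 (limma adjusted p = 3.05e-05). Fyn, a Src family kinase, fell 4.26-fold, the axonal adhesion molecule Cntn2 2.66-fold and Hmgb1, a chromatin protein, 2.01-fold. These falls were all far smaller than the 159.4-fold difference of Cd24a, which was chosen with that difference known.

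Of 17 other neuronal proteins with a GPI anchor, 16 were tested. Between E18 and P5, 4 rose, 0 fell and 12 were not called (median 0.11 beside -0.03). Cntn1, an axonal adhesion molecule, rose from 38.3 and 48.5 FPKM to 191.4 and 143.6 (3.86-fold, log2 difference 1.92, SE 0.18, limma adjusted p = 0.00751). Lynx1, a modulator of nicotinic receptors, rose 12.1-fold, from 2.27 and 2.47 FPKM to 35.8 and 21.6, and again 2.11-fold to 67.4 and 53.8 in Adult. Thy1, the antigen on which the cells were caught, rose 1.89-fold and Negr1, an adhesion molecule, 1.43-fold. From P5 to Adult, 6 rose and 9 fell (median -0.74 beside -0.07). With RGC markers at an equal median 16 rose and 0 fell, where 13416 of all 14390 tested genes rose. The falls of those named ranged from 1.51-fold for Negr1 and 2.85-fold for Thy1 to 5.54-fold for Cntn1. Gfra1, a GDNF receptor subunit, rose 79.0-fold to 22.1 and 33.7 FPKM, and the part of other retinal cells in this rise was not tested.

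Among receptors known to bind Islr2, Ret, the signalling receptor of GDNF family ligands, had 28.8 and 31.9 FPKM at E18, 36.2 and 31.6 at P5, then 20.1 and 16.3 in Adult, and fell 1.87-fold between P5 and Adult (limma adjusted p = 0.00254). Islr2 itself, chosen with its fall known, was 89.1-fold lower at that step.

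The family of proteins that, like Islr2, join leucine-rich repeats to immunoglobulin or related domains was tested for 22 of 24 genes. From E18 to P5, 1 rose and 0 fell (median 0.26 beside -0.03), and between P5 and Adult 8 rose and 6 fell (median 0.19 beside -0.07). With RGC markers at an equal median 22 rose and 0 fell at the second step, where 13416 of all 14390 tested genes rose. Lingo3 rose at both steps, from 1.84 and 2.05 FPKM through 4.99 and 5.48 to 25.5 and 21.5 (limma adjusted p of 0.0141 and 0.00014). Amigo2 rose 9.13-fold between P5 and Adult, Amigo1 3.70-fold and Lrrc4 2.32-fold. Lrrn1 fell 4.14-fold at that step and Lrfn5 3.92-fold, while Lrrn3 and Lrig2 were not called. Their largest difference between P5 and Adult in the direction of Islr2 was -1.96, against -6.11 for Islr2 itself. Islr2 was chosen with its large fall known, so this contrast shows nothing more than the choice does.

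**Figure D4:**
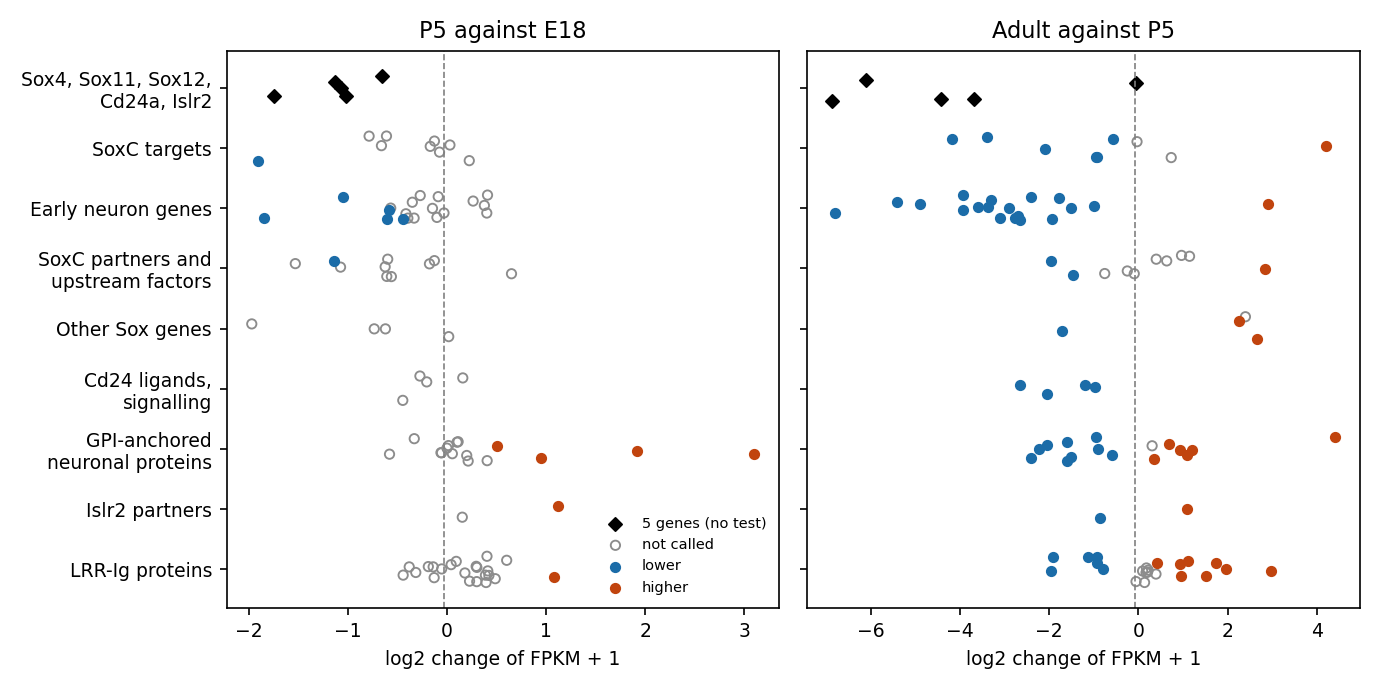
Log2 difference of FPKM + 1 for each tested gene of the 8 lists, one row per list, for P5 against E18 and Adult against P5. Filled points passed the limma test, open points did not, black diamonds are the 5 genes, for which no test is given, and the dashed line is the median of all tested genes. Early neuron genes have a median of -2.90 between P5 and Adult on the deposited scale (0.22 with RGC markers at an equal median), while proteins with a GPI anchor and those with leucine-rich repeats lie on both sides.

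Profiles across the 6 libraries were compared by the root mean square difference of centred log2(FPKM + 1), over 8111 genes with an age mean of at least 10 FPKM. The libraries are shared by all genes and the values are a description. The gene most like Sox4 was Isl1, a LIM homeodomain gene of RGCs and amacrine cells, with a difference of 0.11. Isl1 stood at 237.7 and 245.3 FPKM at E18, 115.2 and 136.0 at P5, then 9.18 and 8.52 in Adult, close to Sox4 in level as well. Ppp1r14b (0.22) and Serf1 (0.23) came next. By this measure Sox11 had no such close neighbour, since its nearest were Igfbpl1, Fblim1 and Isl2 at 0.52 to 0.54, and Sox4 ranked 9 at 0.60. Sox12 was nearest to Casp2 at 0.06, then Rbpj at 0.10 and Rcc2 at 0.11, and Sox4 and Sox11 ranked 7780 and 7997 for it.

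Cd24a was nearest to Tubb2b (0.37) and then to Islr2 (0.56), and Cd24a and Islr2 were the closest pair among the 5 genes by this measure. The measure also weighs the size of a change. By Pearson correlation Sox4 and Sox11 were the closest pair (r = 0.9973, against 0.9963 for Cd24a and Islr2). Mstn, which encodes the muscle growth inhibitor myostatin, was the gene most like Islr2 (0.21) and the third for Cd24a (0.69). It stood at 104.8 and 135.9 FPKM at E18, 84.8 and 119.0 at P5, then 0.632 and 0.291 in Adult. After Mstn, Nnat (0.26) and Kctd12 (0.34) were nearest to Islr2.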

How the data were processed

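The authors deposited isoform abundances as FPKM. HISAT2, Cufflinks, Cuffdiff and mm10 are named per the submitters' processing notes, with no versions and no scaling between libraries stated. The table holds 50829 isoforms under 17027 symbols. The highest value of each isoform reached 1 FPKM, and 0.0001 stands in place of 0. Both P5 columns have the same header, hence the names a and b for these libraries. A further 9 columns with values per sample were not used here. FPKM carry no counts, so depth is unknown and precision rests on 2 libraries per age.

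Isoform FPKM were added up by symbol. With limma 3.58.1 (R 4.3.3), a model of age over all 6 libraries was fitted to log2(FPKM + 1), with a variance trend. It had 3 residual and 3.26 prior degrees of freedom. The 14390 genes with a mean of at least 1 FPKM were tested two-sided, with Benjamini-Hochberg adjustment in each comparison. No replicate block was used. The script was tested on simulated data. Means are ± SD, and SE are those of the fit.

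The 5 genes, the 8 lists and the 12 marker lists were chosen with earlier results of these data known. Named genes are the 5, list genes of the SoxC targets, partners and other Sox genes with an age mean of at least 10 FPKM, and from each other list, at that level, the 4 with the smallest p per comparison and the 2 with the highest level. The 3 nearest profiles per gene leave out predicted genes and small RNAs. Gene positions and the 31-base stretches come from GENCODE M21, promoters from RefSeq. Some genes that meet this rule or belong to the lists are not reported here.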

Additional observations from a re-analysis of the deposited data

How the results depend on the processing

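Alternatives were a pseudocount of 0.1, no filter, a mean of at least 5 FPKM, TPM, quantile normalization, protein-coding genes only, RGC markers at an equal median, each library left out, and a replicate block. The differences of Sox4, Sox11, Cd24a and Islr2 kept their sign in all of them. Sox12 turned in Adult against P5 to 0.216 with protein-coding genes, 2.69 with equal RGC markers and 0.183 without P5 library b (-0.314 without library a), and in Adult against E18 to 1.64 with equal RGC markers. With equal RGC markers the genes called numbered 92 for P5 against E18, 13608 for Adult against P5 and 13562 for Adult against E18, in place of 1507, 8610 and 8588, the median of all genes moved to 2.69 in Adult against P5, and 3 list genes were called for P5 against E18 in place of 13. On that scale Sox4 was -0.68 and Cd24a -4.07 in Adult against P5. Leaving out 1 library gave 10 to 642 genes and 0 to 7 list genes called for P5 against E18, lowest without P5 library a (10) and E18 replicate 1 (28). TPM called 1479 genes higher and 466 lower for P5 against E18, and 1709 and 8603 for Adult against P5, in place of 795 and 712, and 3767 and 4843, with a median of -0.76 in the latter. Protein-coding genes gave 4485 and 2954 there. The causes were not tested. Replicate numbers of E18 and Adult do not pair the libraries as far as the labels say, and same-numbered deviations had r = 0.0183. A fit of only the E18 and Adult libraries with a replicate block called 8057 genes and 66 list genes. The fit of all 6 libraries without a block called 8588 and 71. These fits differ in the libraries as well as in the block, so the effect of the block alone is not shown. P5 columns carry no numbers. Leaving out 1 of 2 libraries assumes that the lone one varies like the others. Unknown depth leaves Adult levels under 1 FPKM, such as Sox11, without a counting error.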
